A study of Mus musculus with 8 samples.

Results

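Proteins made on the rough endoplasmic reticulum (ER) travel to the Golgi in vesicles, and the 40 genes described here encode the coats, cargo receptors and fusion proteins of that step. They were taken by symbol from the 53801 genes of the count table: subunits of the COPII coat with its GTPase, organisers of the ER exit sites, subunits of the COPI coat, cargo and retrieval receptors, and SNAREs, in 5 roles. Every symbol matched a single gene identifier, and all 40 genes passed the filter on low counts, which left 13439 genes in the test.

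COPII coats bud from the ER at exit sites after the small GTPase Sar1 has been loaded with GTP, and carry newly made proteins forward. COPI coats bring escaped ER proteins and recycling receptors back from the Golgi. Paneth cells fill large granules with antimicrobial peptides and lysozyme, so a heavy traffic along this route is part of what they are known for.

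Viable EpCAM+ Cd24+ cells, labelled as Paneth cells, were sorted from small intestinal crypts, 300 cells per library, 10 d after mutagenesis was induced. The genotype was β-cat GOF; Mll1+/- in 4 mice (controls 1 to 4) and β-cat GOF; Mll1-/- in the other 4 (knockouts 1 to 4). All groups share the Lgr5-EGFP-IRES-CreERT2 allele and the β-catenin gain-of-function allele of their genotype name, and the controls are heterozygous for Mll1 (gene symbol Kmt2a), so no Mll1 wild-type group was compared. The mice were littermates by the study's methods, and the labels do not say which of them shared a litter. The Cre is driven by the stem cell promoter Lgr5 and the counts do not show in which cells it acted; the study examined Mll1 in these crypts by immunohistochemistry, which was not analysed here. Mice were 4 to 6 weeks old at induction and of both sexes, and received tamoxifen intraperitoneally on 3 consecutive days (1 mg per injection by the sample labels). The description of the sorting in the study's methods leaves the β-catenin allele out of the genotype, whereas its results and figure legends include it. RNA was copied and amplified by the Smart-seq2 protocol. In a bulk library, fewer cells of a type and less RNA per cell cannot be told apart.

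The total on genes lay between 13037832 and 14380240 counts. Levels are given as CPM on library sizes scaled by TMM, and 1 library stood apart: in knockout 3 only 19662 genes were detected, against 22623 to 26074 elsewhere, and mitochondrial genes took 2.04% of its counts, against 3.26% to 8.78%. As a sum, the 14 Paneth markers were abundant in every library, between 242723 and 705174 CPM, the highest in knockout 3. Defa24 alone gave 182656 to 510974 CPM of it. Goblet markers summed to between 8833 and 22562 CPM, and stromal markers to at most 7.64 CPM with 1 of 9 in the test. The 11 enteroendocrine markers summed to 697 to 945 CPM in the controls and 70.1 to 684 CPM in the knockouts, every knockout below every control. Stem and transit amplifying markers (786 to 1658 CPM in controls, 346 to 1103 CPM in knockouts), tuft markers (153 to 482 and 89.0 to 326 CPM) and enterocyte markers (248 to 435 and 165 to 336 CPM) had ranges that overlapped between the genotypes, each with its lowest value in knockout 3. Of the sum over 10 immune markers, of which 3 were in the test, 81.3% to 98.9% came from Lyz2, a close relative of the Paneth gene Lyz1. Without Lyz2 it was 7.36 to 29.6 CPM in the controls and 7.17 to 23.5 CPM in the knockouts, the lowest in knockout 3, and Ptprc, which marks blood cells, was lowest there too at 1.29 CPM. The part of other cell types in the results was not tested. Kmt2a received between 268 and 719 counts in the controls and between 328 and 523 in the knockouts, and a count over the whole gene does not show the deletion of floxed exons.

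None of the 40 genes passed the thresholds of the genotype comparison, adjusted p 0.05 or below together with a fold change of 0.5 or more in size on the log2 scale, which 25 of the 13439 tested genes passed (0.186%). At a false discovery rate of 10% the count was also 0 of 40, against 0.283% of tested genes, and DESeq2's Wald test made 0 calls as well. The smallest adjusted p was 0.662 (edgeR's quasi-likelihood test with Benjamini-Hochberg adjustment over all tested genes). At an unadjusted p under 0.05, 0 members were higher in the knockouts, against 4.35% of tested genes, and 1 was lower, against 2.53%. In no member were the genotypes apart. Among all tested genes, every knockout lay above every control in 2.59%, and below in 1.93%.

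Fold changes of the 40 genes lay between -0.78 (Sec23a) and 0.52 (Sec16b) on the log2 scale, with a median of -0.08 against 0.01 over all tested genes. For 32 genes the 95% interval of the fold change stayed within 2-fold in either direction, and for 8 it reached beyond. For those 8 a doubling or a halving lay within the interval.

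**Figure D1:**
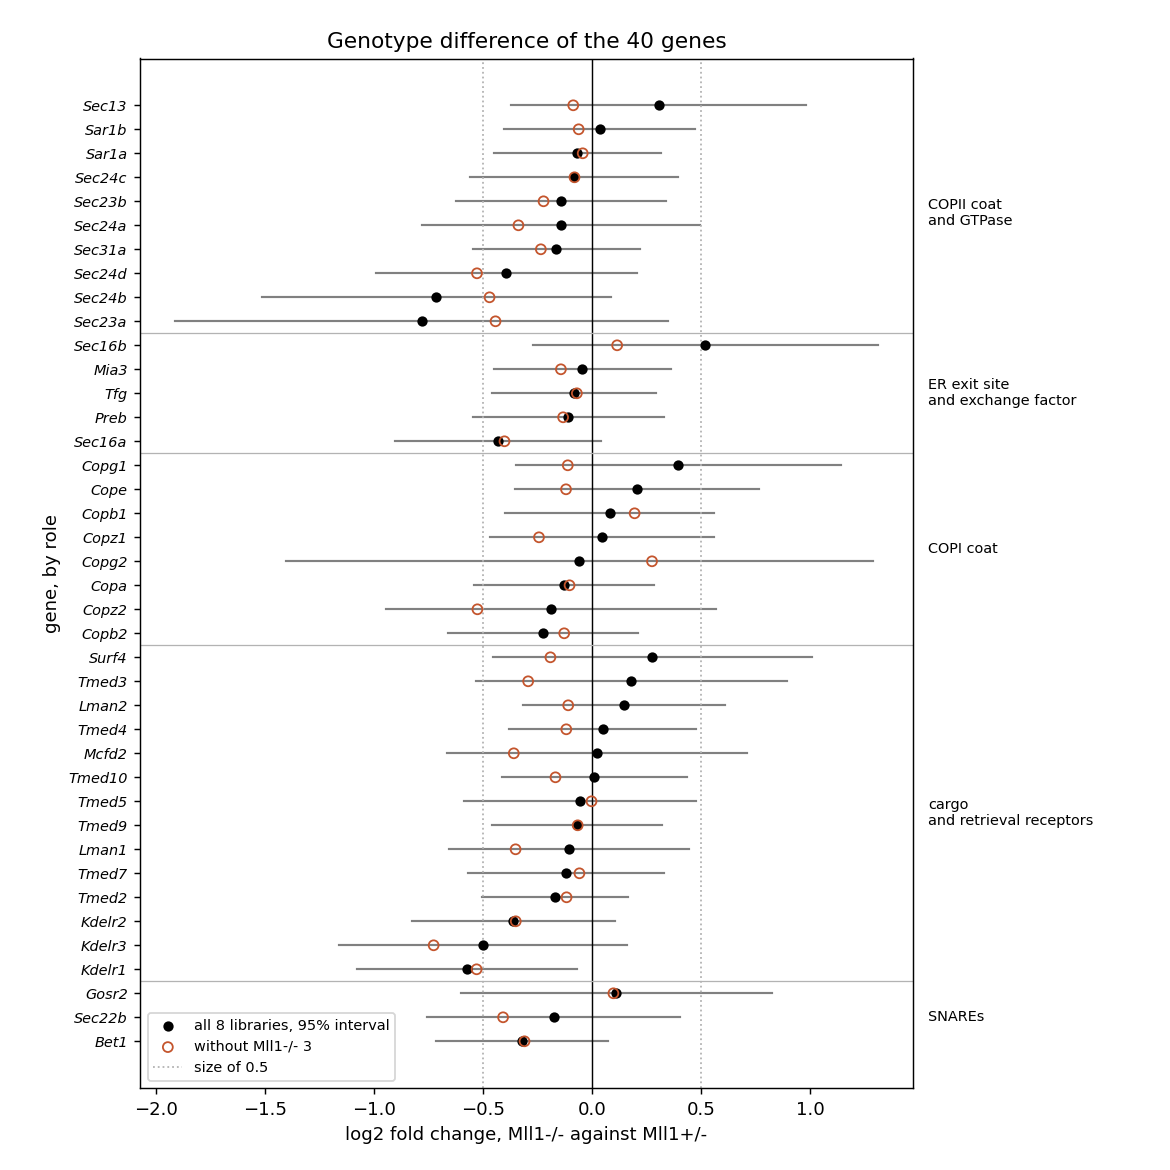
Log2 fold change of each of the 40 genes, knockouts against controls (horizontal axis), by role; black points are the values from 4 against 4 libraries, bars their 95% intervals, and open circles the values without knockout 3. Kdelr1 is the gene whose bar stays clear of 0, and 36 of the 40 open circles lie below 0, against 26 of the 40 black points. The median of all tested genes was -0.01 without knockout 3 and 0.01 with all libraries.

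More members were below 0 than above, and the count moved with single libraries. With all 8 libraries 26 of 40 were lower in the knockouts by their fold change, which is 65.0% against 49.1% of tested genes. With the upper quartile it was 30 and with limma-voom 36, where the medians of all tested genes were -0.04 and -0.01. With library totals alone it was 9, but there the median of all tested genes moved to 0.25, and that of the members was 0.18. Without knockout 3 the count was 36 of 40 and the median -0.14, against -0.01 over all tested genes. Without control 3 it was 16 of 40 with a median of 0.03, against 0.01 over all tested genes. The sample numbers in the labels fall into 2 runs, with 2 libraries of each genotype in each, and the labels do not say what a run stands for. Within the first run (controls and knockouts 1 and 2) 13 of 40 members were lower and the median was 0.07, against -0.01 over all tested genes. Within the second run 29 were lower and the median was -0.30, against 0.03 over all tested genes.

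The COPII coat forms in layers: Sar1 recruits the inner layer of Sec23 and Sec24, in which Sec24 binds cargo, and Sec13 with Sec31 builds the outer cage. Of its 10 genes here, 8 had a fold change below 0 and the median was -0.14. Sar1b, the GTPase that is mutated in human chylomicron retention disease, had the highest level per length in this role, 27.1 ± 4.75 CPM per kb of exon (SD, n = 8). It stood at 24.2, 35.2, 39.8 and 35.2 CPM in controls 1 to 4 and at 38.0, 27.7, 41.1 and 31.1 CPM in knockouts 1 to 4. The 2 genotypes covered the same range, with a log2 fold change of 0.04 ± 0.20 (SE; adjusted p = 0.995).

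Sec23a and Sec24b, both of the inner layer, carried the most negative fold changes of the whole set. Sec23a stood at 8.21, 8.97, 6.46 and 14.2 CPM in controls 1 to 4 and at 8.32, 7.58, 0.705 and 5.03 CPM in knockouts 1 to 4. Its lowest value came from 6 counts in knockout 3, knockout 4 lay below every control, and knockouts 1 and 2 lay among them. The log2 fold change was -0.78 ± 0.52 (SE; adjusted p = 0.88) and -0.44 without knockout 3. Of its exon bases 8.9% are shared with a gene on the opposite strand.

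Sec24b stood at 9.90, 11.4, 8.26 and 13.4 CPM in controls 1 to 4 and at 11.0, 6.78, 2.58 and 5.52 CPM in knockouts 1 to 4. Knockouts 2, 3 and 4 lay below every control and knockout 1 among them. The log2 fold change was -0.71 ± 0.37 (SE; adjusted p = 0.788; two-sided exact permutation p = 0.0857, where the smallest possible with 4 against 4 is 0.0286). It was -0.47 without knockout 3 and -1.09 without knockout 1.

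Sec13, of the outer cage, showed the opposite picture in knockout 3 on the TMM scale. With library totals only it stood there at 30.1 CPM, within the 24.2 to 31.8 CPM of the other knockouts. It stood at 14.1, 23.5, 24.5 and 26.9 CPM in controls 1 to 4 and at 18.9, 23.8, 47.6 and 20.2 CPM in knockouts 1 to 4. Without knockout 3 its log2 fold change went from 0.31 to -0.09. Its partner Sec31a lay between 39.9 and 60.8 CPM over the 8 libraries.

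ER exit sites are laid out by Sec16 and Tfg, Preb (also called Sec12) loads Sar1 with GTP there, and Mia3 (TANGO1) feeds bulky cargo such as collagens into the bud. Tfg had the highest level per length of these 5 genes, 16.1 ± 2.16 CPM per kb (SD, n = 8). It stood at 32.8, 33.2, 44.9 and 40.9 CPM in controls 1 to 4 and at 33.3, 42.3, 34.7 and 33.1 CPM in knockouts 1 to 4. The log2 fold change was -0.08 ± 0.17 (SE; adjusted p = 0.985), and the genotypes overlapped over most of their range.

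Sec16a and its shorter relative Sec16b had fold changes on opposite sides of 0. Sec16a stood at 17.9, 17.5, 30.5 and 21.4 CPM in controls 1 to 4 and at 19.2, 15.0, 14.9 and 15.3 CPM in knockouts 1 to 4. Knockout 1 lay among the controls, and the log2 fold change was -0.43 ± 0.22 (SE; adjusted p = 0.779) and -0.23 without control 3. Sec16b stood at 6.02, 4.68, 8.35 and 9.08 CPM in controls 1 to 4 and at 7.60, 5.63, 17.7 and 9.64 CPM in knockouts 1 to 4. Knockout 3 held almost the whole of that difference: the log2 fold change was 0.52 ± 0.36 (SE; adjusted p = 0.889) with it and 0.11 without it.

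The COPI coat is a complex of 7 kinds of subunit, of which the γ and ζ subunits each have a pair of genes (Copg1 and Copg2, Copz1 and Copz2). Of the 8 COPI genes among the 40, 4 had a fold change above 0 and 4 below. Arcn1, the δ subunit, is not one of the 40 and had a log2 fold change of -0.18 ± 0.18 (SE; adjusted p = 0.939). Cope, the ε subunit, had the highest level per length of the 8, 11.4 ± 3.60 CPM per kb (SD, n = 8). It stood at 28.3, 34.3, 38.1 and 41.2 CPM in controls 1 to 4 and at 30.5, 30.3, 66.0 and 37.3 CPM in knockouts 1 to 4. Knockout 3 lay above all other libraries, and the log2 fold change was 0.21 ± 0.26 (SE; adjusted p = 0.96) with it and -0.12 without it.

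The γ subunits went furthest apart in the same library. Copg1 stood at 14.7, 18.0, 24.5 and 23.0 CPM in controls 1 to 4 and at 21.3, 18.0, 50.4 and 16.5 CPM in knockouts 1 to 4. Copg2 stood at 4.39, 1.98, 3.32 and 1.50 CPM in controls 1 to 4 and at 4.22, 4.42, 0.352 and 1.58 CPM in knockouts 1 to 4. Knockout 3 was thus the highest library for Copg1 and the lowest for Copg2, where its value rests on 3 counts. Copg2 shares 17.8% of its exon bases with Mest on the opposite strand, and the strand setting of the counting is not given in the sources used here.

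The large subunits did not follow Copg1. In knockout 3 Copa stood at 45.3, Copb1 at 33.2 and Copb2 at 34.9 CPM, each below the other 3 knockouts. Copz1 (63.3 CPM) and Copz2 (31.5 CPM) were highest there.

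Cargo receptors pick soluble proteins into the coats, and retrieval receptors bring ER residents back. Kdelr1, Kdelr2 and Kdelr3 bind the KDEL signal at the end of ER chaperones in the Golgi and return them in COPI vesicles. Kdelr2 had the highest level per length of all 40 genes, 49.8 ± 13.0 CPM per kb (SD, n = 8). It made up 73.5% ± 3.44 (SD, n = 8) of the per-kb level of the 3 KDEL receptor genes, with 14.4% ± 4.28 from Kdelr1 and 12.1% ± 2.73 from Kdelr3.

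Kdelr1 was the member with an unadjusted p under 0.05. It stood at 26.0, 24.0, 20.6 and 15.1 CPM in controls 1 to 4 and at 16.2, 17.7, 12.9 and 10.7 CPM in knockouts 1 to 4. Controls 1 to 3 lay above every knockout, and control 4 fell between them. The mean was 21.4 ± 4.79 CPM over the controls and 14.4 ± 3.19 CPM over the knockouts (SD, n = 4 per genotype), with a log2 fold change of -0.57 ± 0.23 (SE; 95% interval -1.08 to -0.07; unadjusted p = 0.0293 and adjusted p = 0.662, edgeR; two-sided exact permutation p = 0.0857). Without knockout 3 it was -0.53, and within the 2 label number runs it was -0.56 and -0.58. The difference did not pass the correction over all genes. Its unadjusted p was not under 0.05 within the second run, with limma-voom, with library totals only, and without control 1, control 2 or knockout 4.

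The other KDEL receptors had fold changes on the same side, with intervals that included 0. Kdelr2 stood at 75.0, 95.8, 142 and 97.1 CPM in controls 1 to 4 and at 69.9, 99.4, 77.5 and 72.5 CPM in knockouts 1 to 4. Control 3 was the highest library by a wide margin, and the log2 fold change was -0.36 ± 0.21 (SE; adjusted p = 0.849) and -0.16 without control 3. Kdelr3 stood at 8.34, 12.1, 20.5 and 13.7 CPM in controls 1 to 4 and at 7.48, 8.27, 14.1 and 8.98 CPM in knockouts 1 to 4. Its log2 fold change was -0.50 ± 0.30 (SE; adjusted p = 0.851), and -0.24 without control 3, and the genotypes overlapped. Within the first run the fold change of Kdelr2 was -0.01 and that of Kdelr3 -0.38.

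The p24 proteins (the Tmed genes) are small membrane proteins that cycle between ER and Golgi and help to load GPI-anchored cargo. Of the 7 Tmed genes among the 40, Tmed2 and Tmed3 had the highest levels per length, with 22.1 ± 2.39 and 20.7 ± 8.81 CPM per kb (SD, n = 8). Tmed2 was the steadiest of all 40 genes, between 46.3 and 66.8 CPM, with a coefficient of variation of 10.8% over the 8 libraries. Tmed3 varied with a coefficient of 42.6%. It stood at 40.9, 48.9, 71.2 and 59.4 CPM in controls 1 to 4 and at 39.5, 43.1, 115 and 52.5 CPM in knockouts 1 to 4, the highest of them in knockout 3. The fold changes of these 7 Tmed genes lay between -0.17 (Tmed2) and 0.18 (Tmed3) on the log2 scale, and that of Tmed3 was -0.29 without knockout 3. Of the Tmed genes outside the 40, Tmed6 had a higher level per length, 76.6 ± 27.1 CPM per kb (SD, n = 8), with a log2 fold change of 0.05 ± 0.31 (SE; adjusted p = 0.995). Tmed1 (1.29) and Tmed8 (-1.72) had fold changes outside the range of the 7, and Tmed11 did not enter the test.

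Lman1 and Mcfd2 form the receptor that carries blood clotting factors V and VIII in other cells, Lman2 binds high-mannose glycoproteins, and Surf4 carries many soluble proteins. Surf4 stood at 25.6, 46.4, 50.1 and 50.4 CPM in controls 1 to 4 and at 36.5, 40.9, 95.7 and 36.0 CPM in knockouts 1 to 4. Lman2 stood at 34.1, 33.6, 38.9 and 34.5 CPM in controls 1 to 4 and at 33.9, 31.6, 58.1 and 32.7 CPM in knockouts 1 to 4. Apart from knockout 3 the Lman2 values of the genotypes ran together. Mcfd2 reached 76.8 CPM and Lman1 79.9 CPM in knockout 3, against at most 57.5 and 74.8 CPM in any other library. With all libraries the log2 fold changes of these 4 receptors lay between -0.11 (Lman1) and 0.27 (Surf4). Without knockout 3 all were below 0, at -0.36 for Mcfd2, -0.35 for Lman1, -0.19 for Surf4 and -0.11 for Lman2.

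SNAREs pull the vesicle and target membranes together. Bet1, a SNARE of the ER to Golgi step, stood at 40.9, 49.99, 61.4 and 52.5 CPM in controls 1 to 4 and at 35.9, 50.2, 39.5 and 38.0 CPM in knockouts 1 to 4. Knockouts 1, 3 and 4 lay below every control, while knockout 2 lay among them. The log2 fold change was -0.32 ± 0.18 (SE; adjusted p = 0.826). Sec22b lay between 16.8 and 34.5 CPM and Gosr2 between 3.57 and 9.03 CPM over the 8 libraries.

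**Figure D2:**
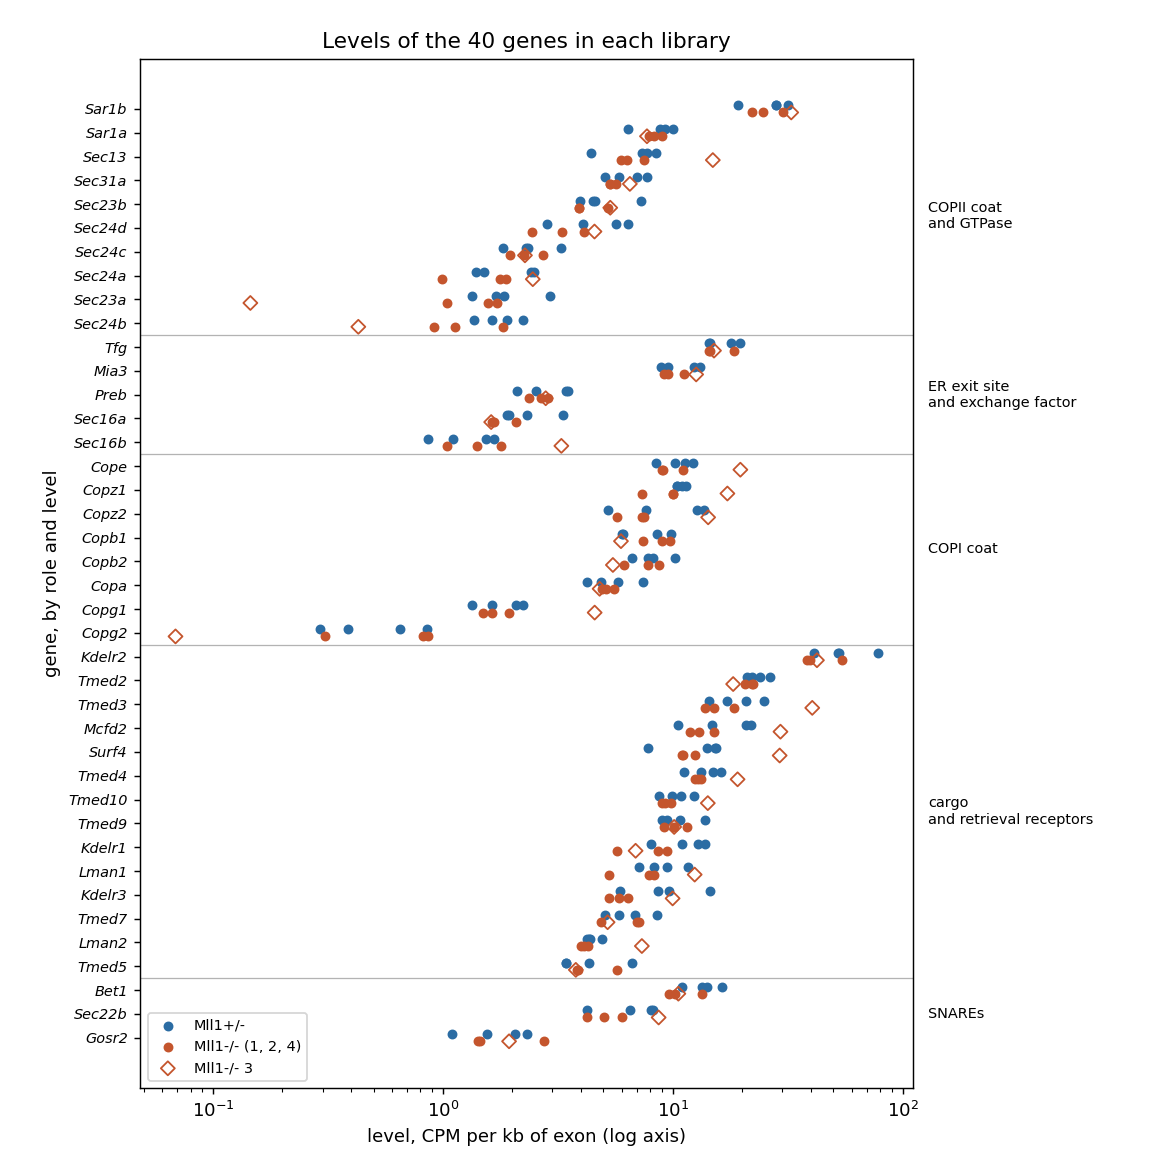
Level of the 40 genes in every library as CPM per kb of exon on a log axis, grouped by role and ordered by their mean; blue points are the 4 controls, orange points knockouts 1, 2 and 4, and the open diamond knockout 3. Kdelr2 leads with a mean of 49.8 CPM per kb, Copg2 is lowest with 0.531, and the diamonds of Sec23a, Sec24b and Copg2 lie far to the left of the other points of those genes.

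Compared per length, the 10 most abundant of the 40 genes made up between 52.3% and 56.5% of their summed level in every library. They were Kdelr2, Sar1b, Tmed2, Tmed3, Mcfd2, Tfg, Tmed4, Surf4, Bet1 and Cope, of which 6 are receptors. Coverage in this protocol need not be even along a transcript, and the lengths are those of all annotated exons of a gene.

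The libraries of each genotype spread widely. The summed level of the 40 genes was 1112, 1270, 1689 and 1521 CPM in controls 1 to 4 and 1205, 1312, 1635 and 1158 CPM in knockouts 1 to 4. Control 3 and knockout 3 were the highest library for 15 genes each. Control 3 was the highest for 10.1% and knockout 3 for 26.8% of all tested genes. Control 1 was the lowest library for 15 of the 40, and for 12.3% of all tested genes. With DESeq2's size factors it was the lowest for 18 of the 40. With library totals only control 1 was the lowest for 5, and knockout 3 was the lowest for 25. Control 3 was then the highest for 2, knockout 3 for 3 and knockout 2 for 21, against 2.08%, 5.72% and 28.9% of all tested genes. The sum of the Paneth markers was also highest in knockout 3 and control 3, at 705174 and 524729 CPM, with control 4 next at 487494 CPM. Defa24 alone gave 510974, 397328 and 360225 CPM of these sums. The sum of the goblet markers had the same order, at 22562, 20014 and 13350 CPM. These sums share the TMM scaling of the 40 genes. The part of Paneth or goblet cell content in these differences was not tested.

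That order depended on the scaling. With TMM, DESeq2's size factors, the upper quartile, or TMM without the 50 most abundant genes, control 3 had the highest sum and knockout 3 the next. With library totals alone, knockout 2 had the highest sum (1753 CPM) and knockout 3 the lowest (1034 CPM). Library totals alone also moved the median log2 fold change of all tested genes by 0.24, to 0.25. The median of the 40 genes was then 0.18, so it remained below that of all genes.

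**Figure D3:**
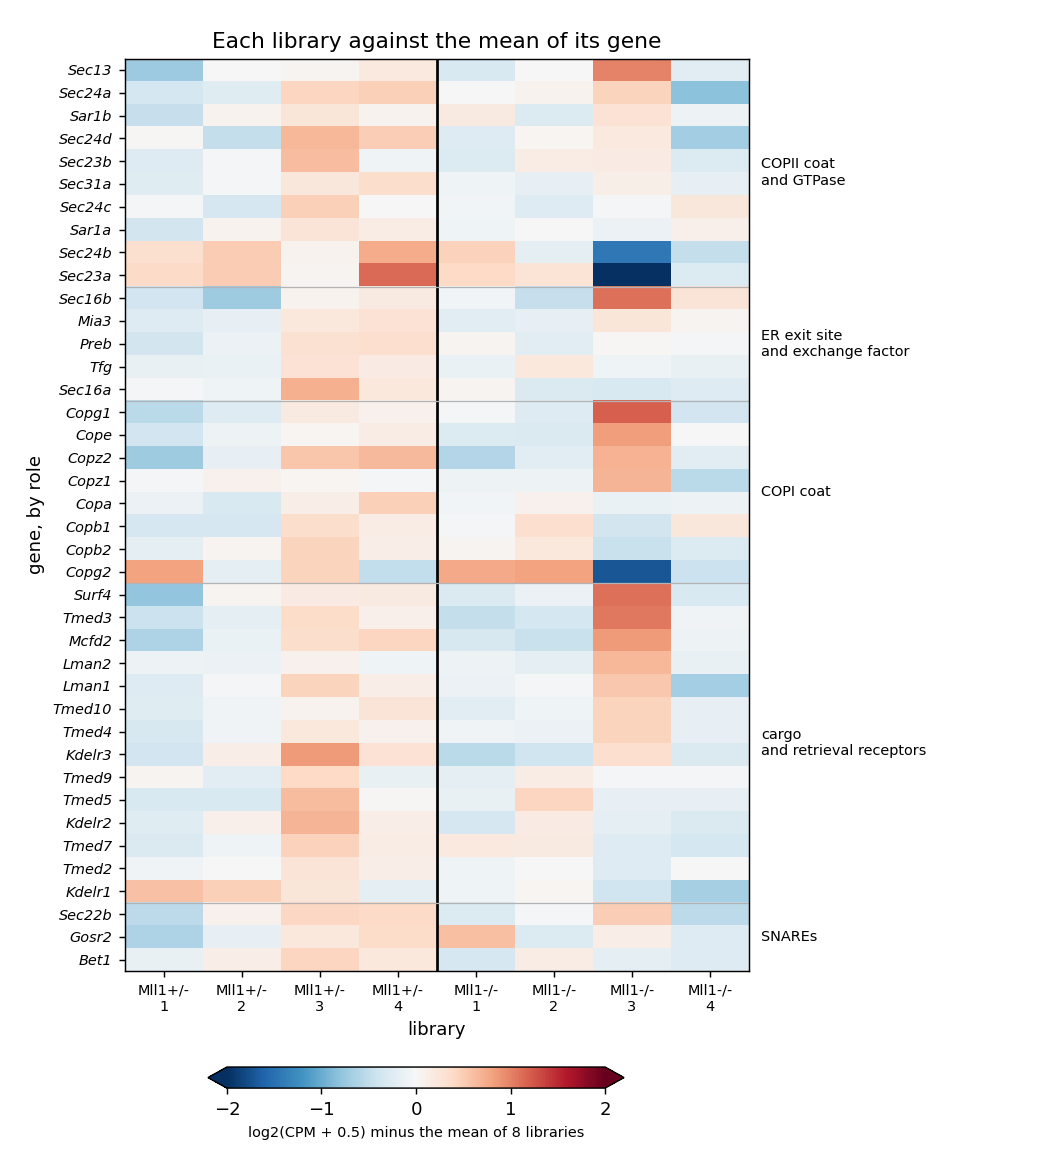
Difference of each library from the mean of its gene, on the scale of log2(CPM + 0.5) after TMM scaling, for the 40 genes in rows by role and the 8 libraries in columns; red is above and blue below the mean, with the colours ending at 2 in size. Control 1 is mostly blue and control 3 mostly red, and knockout 3 holds both the deepest red (Copg1, Sec16b, Surf4, Tmed3) and the deepest blue (Sec23a, Copg2, Sec24b).

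Knockout 3 was uneven across the set. On the TMM scale 21 of the 40 genes in it lay above all other knockouts and 10 below them, against 35.7% and 41.1% of all tested genes. With library totals only these were 4 genes (Copg1, Tmed3, Surf4 and Mcfd2) and 28 genes, against 7.54% and 75.0%. Sec13, Cope, Copz1, Copz2, Sec16b, Lman1 and Lman2 were among the genes that no longer lay above the other knockouts. Copg1 was highest relative to the mean of the other knockouts, at 2.71 times, followed by Tmed3 (2.56 times) and Surf4 (2.53 times). With library totals only the same ratios were 1.34, 1.27 and 1.25 times. At the other end were Sec23a, Copg2 and Sec24b, at 0.101, 0.103 and 0.332 times that mean (0.0497, 0.0506 and 0.164 times with library totals only). The ratio of Copg2 rests on 3 counts, whose exact Poisson interval (95%, counting error only) runs from 0.0213 to 0.302 times. The transcription factor Xbp1, which raises secretory pathway genes in gland cells, stood at 206 CPM in knockout 3 and at 72.9 to 81.1 CPM in the other knockouts (130 against 97.4 to 102 CPM with library totals only).

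A ratio of 2 related genes within a library depends on its scaling only through the 0.5 CPM added to each, which weighs on genes near that level, such as Copg2 and Sec23a in knockout 3. Over 11 pairs, none had genotypes apart, and the smallest two-sided exact permutation p was 0.0857 (0.786 after Benjamini-Hochberg adjustment over the pairs), for Sec16a over Sec16b. Its log2 ratio, taken of CPM + 0.5, was 1.57 ± 0.29 over controls and 0.76 ± 0.74 over knockouts (SD, n = 4 per genotype). The difference was -0.82, and -0.48 without knockout 3, where the ratio had turned to -0.24.

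Sec23a and Sec23b have overlapping roles in the inner layer, and Sec23b gave most of the level here. Per kb of exon it made up between 60.5% and 84.5% of the pair in 7 libraries and 97.4% in knockout 3. The log2 ratio of Sec23a to Sec23b was -1.72 ± 0.74 over controls and -2.65 ± 1.48 over knockouts (SD, n = 4 per genotype; exact permutation p = 0.429). The difference was -0.92, -0.65 with 2 CPM added in place of 0.5, and -0.20 without knockout 3. Copg1 likewise made up 61.0% or more of the γ pair in every library and 98.5% in knockout 3. The log2 ratio of Copg1 to Copg2 differed by 0.56 between the genotypes (exact permutation p = 0.714), by 0.38 with 2 CPM added and by -0.32 without knockout 3. Sar1b made up 72.6% to 80.9% of the Sar1 pair, the narrowest range of these 3 pairs.

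Sec24 has 4 genes, which bind partly different cargo. Sec24d gave 41.6% ± 5.47 of their summed per-kb level, Sec24c 24.8% ± 5.97, Sec24a 18.8% ± 3.52 and Sec24b 14.8% ± 6.05 (SD, n = 8). The log2 ratio of Sec24a to Sec24b was 0.90 ± 0.51 over controls and 1.57 ± 1.09 over knockouts (SD, n = 4 per genotype; exact permutation p = 0.314). The difference was 0.66, and 0.14 without knockout 3.

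**Figure D4:**
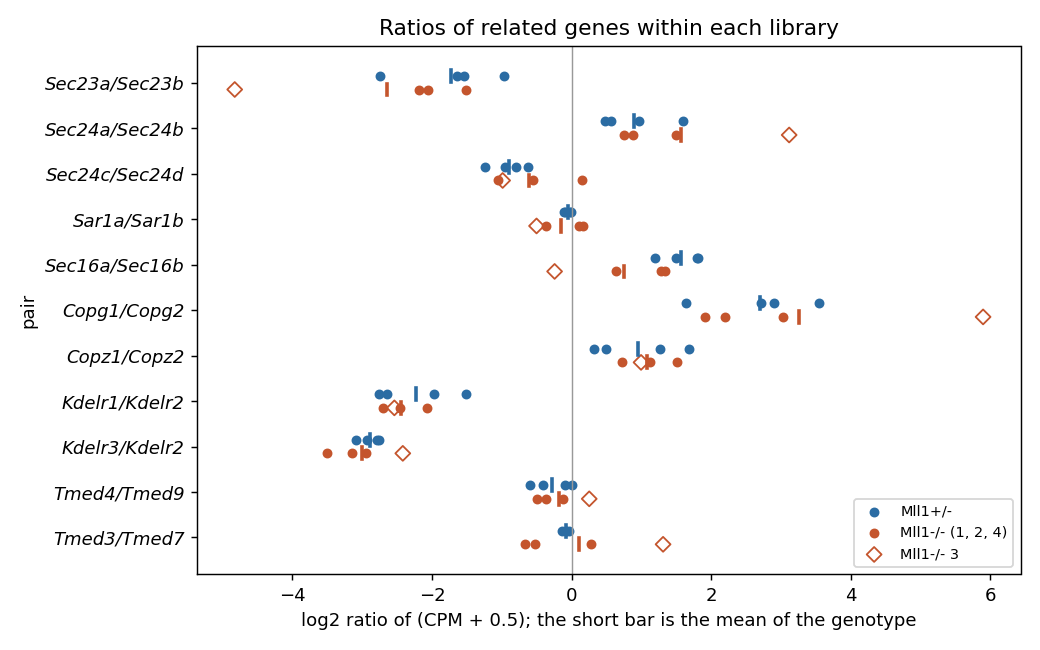
Log2 ratio of CPM + 0.5 for 11 pairs of related genes (rows) in each library; blue points are controls, orange points knockouts 1, 2 and 4, the open diamond knockout 3, and the short bars the mean of each genotype. The genotypes overlap in every pair. Knockout 3 is the lowest library for Sec23a/Sec23b (-4.83), Sec16a/Sec16b (-0.24) and Sar1a/Sar1b (-0.50). It is the highest for Copg1/Copg2 (5.90), Sec24a/Sec24b (3.12), Tmed3/Tmed7 (1.31), Tmed4/Tmed9 (0.25) and Kdelr3/Kdelr2 (-2.42).

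The rest of the route was read from 4 further lists. Of 50 other ER to Golgi trafficking genes 46 were tested, none passed both thresholds, 1 had an unadjusted p under 0.05 with a higher level in the knockouts (4.35% of all tested genes) and 2 with a lower level (2.53%). All 24 genes of ER translocation and signal peptide processing and all 16 KDEL-type ER residents were tested, with 0 at an unadjusted p under 0.05 in either list. Of 12 transcription factors of the secretory apparatus 10 were tested and 1 was lower at that level. The medians of the 4 lists lay at -0.02, 0.03, 0.02 and 0.07 on the log2 scale.

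Tmed8, a further p24 gene, had the smallest p of these lists. It stood at 7.65, 2.38, 7.09 and 5.76 CPM in controls 1 to 4 and at 1.84, 1.78, 0.587 and 2.55 CPM in knockouts 1 to 4. Control 2 fell among the knockouts. The log2 fold change was -1.72 ± 0.47 (SE; adjusted p = 0.344), and with DESeq2's Wald test and in edgeR without a filter on low counts it passed, at adjusted p = 0.0381 and 0.0109 (0.0109 to 0.691 over the alternatives fitted on both runs, the highest with library totals only).

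Tmed1, another p24 gene, went the other way at a low level. It stood at 0.815, 0.952, 1.26 and 0.868 CPM in controls 1 to 4 and at 1.72, 1.67, 4.82 and 1.52 CPM in knockouts 1 to 4. Every knockout lay above every control, with a log2 fold change of 1.29 ± 0.50 (SE; adjusted p = 0.609) that was 0.75 without knockout 3. Uso1 (p115), which tethers vesicles at the Golgi, had a log2 fold change of -0.47 ± 0.21 (SE; adjusted p = 0.711). Named after their values were seen, Golga2, Gorasp1 and Srp68 had every knockout below every control, with adjusted p of 0.751, 0.788 and 0.834. They were 2 of the 46 tested trafficking genes and 1 of the 24 translocation genes, with 0 of the 16 KDEL-type residents and 0 of the 10 tested factors. Among all tested genes every knockout lay below every control in 1.93%, and above, like Tmed1, in 2.59%.

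Among the regulators, Bhlha15 (Mist1), which scales up the secretory apparatus, stood at 21.0, 23.3, 33.4 and 28.3 CPM in controls 1 to 4 and at 14.4, 18.7, 26.4 and 14.7 CPM in knockouts 1 to 4. Its log2 fold change was -0.52 ± 0.24 (SE; adjusted p = 0.724), and the genotypes overlapped through knockout 3. Xbp1 had a log2 fold change of 0.21 ± 0.32, the chaperone gene Hspa5 (BiP) of 0.01 ± 0.29, and Sec61a1, the core of the translocation channel, of 0.22 ± 0.31 (SE; adjusted p of 0.97, 0.998 and 0.97). All of these became negative without knockout 3, at -0.29, -0.22 and -0.15.

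Xbp1 and Atf6 are known to bind short promoter elements in genes of this route, so the 250 bases before the RefSeq gene starts were searched on both strands (GRCm38.p6). A promoter was at hand for 36 of the 40 genes, with Kdelr2, Lman1, Tmed2 and Tmed7 not among them. The letters TGACGTGG, known as the UPRE, were found in 4 of the 36 (11.1%) and in 0.603% of 27025 genes with a promoter, and its shorter core ACGTGG, which lies inside it, in 13 (36.1%) against 7.84%. Among the 9176 tested genes with a promoter the shares were 0.861% and 11.2%. The ERSE was found in 0 of 36 against 0.13%, and the ERSE-II in 0 of 36 against 0.037% (0.142% and 0.0763% among the tested genes). These 4 were among 14 strings looked at, several of which overlap each other. A match is a description of these letters, not a binding site.

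The 4 UPRE matches are shown to set their genes beside their fold changes, with the matched letters in capitals, 5′ to 3′ on the strand of the gene. Where it reads CCACGTCA the match is on the other strand. It begins 30 bases before the RefSeq start in Kdelr3, 26 in Sec24d, 28 in Copb1 and 44 in Sec16b, and in the last 3 it lies inside the Ensembl span of the gene.
Kdelr3 (chr15:79516367-79516396, + strand): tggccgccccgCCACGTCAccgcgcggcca
Sec24d (chr3:123267459-123267488, + strand): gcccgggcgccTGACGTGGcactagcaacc
Copb1 (chr7:114254690-114254719, - strand): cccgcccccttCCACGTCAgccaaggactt
Sec16b (chr1:157506741-157506770, + strand): ttctgtgtggcTGACGTGGcacggcagttt

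The log2 fold changes of these 4 genes were -0.50 ± 0.30 for Kdelr3, -0.39 ± 0.27 for Sec24d, 0.08 ± 0.22 for Copb1 and 0.52 ± 0.36 for Sec16b (SE), and none passed the test. In knockout 3, where Xbp1 was highest, Kdelr3 stood at 1.71, Sec24d at 1.39 and Sec16b at 2.33 times the mean of the other knockouts, and Copb1 at 0.682 times. With library totals only these ratios were 0.848, 0.684, 1.16 and 0.337 times. On the TMM scale 21 members of the whole set and 35.7% of all tested genes lay above all other knockouts in knockout 3. Whether Xbp1 or the UPRE letters have a part in the levels of these 4 genes was not tested.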

How the data were processed

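RNA of 8 libraries of sorted cells was compared by the genotype in the sample labels. The authors aligned reads to mm10 with GSNAP and counted uniquely mapped reads per gene of Ensembl release 92 with featureCounts 1.6.3 (after bcl2fastq 2.19.1, per the submitters' processing notes); the deposited values are raw counts, without normalization, and a removal of PCR copies is not given in the sources used here. From these counts TMM factors and robust quasi-likelihood fits were computed with edgeR 4.0.16 in R 4.3.3 for genes passing filterByExpr (minimum count 10, minimum total 15), with no covariate, and adjusted over all tested genes. Standard errors were approximated as the fold change divided by the square root of F, and 95% intervals use the t distribution at the degrees of freedom of the fit. Ratios were tested with exact permutation tests. A count of 3 corresponds to 0.172 to 0.352 CPM. Replicate numbers are names only. The sample number in the titles differs between libraries except for control 4 and knockout 4, which share theirs, and the labels do not say what it stands for; its 2 runs were used as a block in an alternative. DESeq2 1.42.0 and limma 3.58.1 were alternatives. Functions were tested on simulated data. The 40 genes, the roles, the lists and the tests were chosen with earlier results of these data known. Values per library are given for the gene with the highest level per kb of each role, and for genes with an unadjusted p under 0.05, with the genotypes apart, or with 1 library apart where a result turned on it; other genes given in full were picked after their values were seen. In the further lists, genes with an unadjusted p under 0.05 are named, and Xbp1, Bhlha15, Hspa5 and Sec61a1 always. Exon overlaps with other genes were found for 12 of the 40 genes. No 2 libraries agreed within sampling noise (smallest chi-square per degree of freedom 12.2).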

Additional observations from a re-analysis of the deposited data

Results flagged for a closer look

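Within a group of 4 libraries, a library was set apart by Dixon's test at 95%, which divides its distance to the closest other library by the range of the 4. This happened in 10 of the 86 groups looked at, where chance gives about 1 in 20, which is 4.3; groups of different genes share their libraries.

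Knockout 3 stood above the other knockouts for Surf4 (0.918), Lman2 (0.914), Tmed4 (0.876), Copg1 (0.859) and Tmed10 (0.835). Tmed4 stood at 41.7 CPM there against 27.1 to 28.9 CPM, and Tmed10 at 82.6 CPM against 52.0 to 57.0 CPM. These are values on the TMM scale: with library totals only, Lman2, Tmed4 and Tmed10 lay below the other knockouts in knockout 3. The share of mitochondrial counts in knockout 3 was set apart downwards (0.957), at 2.04% against 5.98% to 6.16% in the other knockouts.

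Knockout 2 stood above the other knockouts for Tmed5 (0.966), at 44.2 CPM against 29.1 to 29.6 CPM, and for Tfg (0.832), at 42.3 CPM against 33.1 to 34.7 CPM. Knockout 1 did so for Sec16a (0.9), at 19.2 CPM against 14.9 to 15.3 CPM. Control 1 stood below the other controls for Surf4 (0.838), at 25.6 CPM against 46.4 to 50.4 CPM. What sets these libraries apart was not tested.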

How the results depend on the processing

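The count of members past both thresholds was 0 under every alternative fitted on both runs and within each run, and that of members higher at an unadjusted p under 0.05 was 0 in the former and 1 (Copb1) within the first run. The count of lower members (1) was 2 with upper-quartile normalization and with the label number run as a block, and 3 without a filter. It was 0 with library totals only (chosen after seeing the data), and 0 to 4 over the fits without 1 library (4 without control 1, 0 without knockout 4). Within the first run it was 1 (Kdelr1) and within the second 3 (Copb2, Sec16a and Sec24b). The share of all tested genes at that level is given for the main fit only (2.53% lower and 4.35% higher). The counts of the alternatives have no such share beside them. The median log2 fold change of the members was -0.30 within the second run (0.03 over all tested genes) and 0.18 with library totals only (0.25 over all tested genes). It was -0.17 to 0.03 without 1 library, positive without control 3.

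Signs turned for Cope (-0.14 with limma-voom, -0.042 within the first run, -0.12 to 0.33 without 1 library), for Sar1b (-0.011 with the upper quartile, -0.060 with limma-voom, -0.045 within the second run, -0.092 to 0.13 without 1 library) and for Tfg (0.19 within the first run, -0.17 to 0.0057 without 1 library). With library totals only the value of Tfg was 0.19, where the median of all tested genes moved by 0.24, so its sign there says nothing about Tfg. Within the first run the ratio differences turned for Sec24c/Sec24d (-0.091), Copg1/Copg2 (-0.21), Copz1/Copz2 (-0.16) and Tmed3/Tmed7 (-0.49), and within the second run for Kdelr1/Kdelr2 (0.081) and Kdelr3/Kdelr2 (0.094). Without 1 library the ratio differences spanned 0 for Sar1a/Sar1b (-0.20 to 0.024), Copg1/Copg2 (-0.32 to 1.01), Copz1/Copz2 (-0.066 to 0.39), Kdelr1/Kdelr2 (-0.40 to 0.017), Kdelr3/Kdelr2 (-0.30 to 0.060), Tmed4/Tmed9 (-0.053 to 0.20) and Tmed3/Tmed7 (-0.22 to 0.44). The causes were not tested. The labels give no replicate numbers or litters to pair single libraries by, so the block fitted was the label number run. Depth limits Copg2 and Sec23a most, which had under 10 counts in knockout 3.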
